A study of Mus musculus with 18 samples.

Results

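The genes described here encode 3 machines of the inner mitochondrial membrane and their helpers: complex II (succinate dehydrogenase), complex III (cytochrome bc1) and ATP synthase. They were chosen by gene symbol, as genes named Sdha to Sdhd, Sdhaf followed by a digit, Uqc, Cyc1 or Atp5 with a mean value of at least 50 in each of 3 deposited tables. All 33 symbols that match the names reached this level, out of 23420 genes listed. There were 6 complex II genes, 10 complex III genes and 17 ATP synthase genes.

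Complex II oxidises succinate in the citric acid cycle and hands the electrons to ubiquinone. Complex III passes electrons from ubiquinol to cytochrome c and pumps protons, and ATP synthase lets protons flow back through a rotating ring of c subunits while it makes ATP. Complex II is encoded wholly in the nucleus, whereas complex III and ATP synthase each also hold subunits made from mitochondrial DNA, which were not analysed here.

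RNA-seq was performed on whole mouse lungs at 14.5 dpc (days post coitus), with 3 deficient and 3 control samples in each of 3 lines, 18 in all. Deficient lungs were Rptorf/f; ShhCre/+, Tfamf/f; ShhCre/+ or Cox10f/f; ShhCre/+, and control littermates carried 1 floxed allele with the same Cre (f/+; ShhCre/+). Shh-driven Cre acts in the lung epithelium and leaves the floxed gene intact in the other cells of the lung. Rptor encodes a part of mTORC1 (a growth-controlling kinase complex), Tfam a protein that packages mitochondrial DNA and starts its transcription, and Cox10 an enzyme of heme a synthesis needed for complex IV, and the study set the 3 deletions side by side to ask how mTORC1 and mitochondria bear on airway formation. The values are normalised read counts, in which the authors divided a gene's count by a scale factor of the sample. A gene passed the test at an adjusted p below 0.05 in limma on log2(value + 1), and ± is the SD of 3 samples.

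Sample totals were 27727202 to 29611064, and the 33 genes together made up 0.525% to 0.666% of a total. The deleted gene itself did not pass the test in any line, and its groups overlapped (limma adjusted p = 0.570, 0.472 and 0.979 for Rptor, Tfam and Cox10), so a whole-lung level of the deleted gene was a weak check of genotype. Libraries differed in how often they held the extreme value of a gene. In the Rptor line deficient replicate 1 held the lowest value for 15 of the 33 genes, against 25.3% of all genes tested, and control replicate 3 the highest for 13, against 13.6%. In the Tfam line control replicate 3 held the highest of the 6 values for 23 of the 33 genes, while it did so for 19.6% of all genes tested. In the Cox10 line deficient replicate 3 held the highest value for 15 of the 33 genes, against 30.7% of all genes, and the lowest for 3, against 30.3%, while deficient replicate 2 held the lowest for 13, against 13.8%. Epithelial markers, 15 genes with Epcam, Cdh1 and Nkx2-1 among them, summed to 37084 to 38302 in Rptor controls and to 15741 to 20418 in Rptor-deficient lungs. Tfam controls had 35099 to 36760 and Tfam-deficient lungs 28424 to 31471, while Cox10 controls had 28236 to 28834 and Cox10-deficient lungs 19374 to 25949. A whole-lung value cannot tell fewer cells of a type from less RNA per cell.

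Short stretches upstream of several genes are shown first, because promoters of respiratory genes are known for sites of the factors NRF1 and GABP, the latter an ETS factor. RefSeq promoter windows (build GRCm38.p6, 250 bases before to 50 bases after the start) were at hand for 27 of the 33 genes, and the first listed window of a gene was read on both strands. The NRF1 core GCATGCGC was found in 6 of the 27 windows (Atp5g2, Atp5k, Atp5l, Sdhb, Uqcr11 and Uqcrc1) and in 2.80% of the windows of all 27025 genes. The ETS core CCGGAAG was found in 10 of 27 and in 9.12% of all. The YY1 core AAGATGGC was present in 3 of 27 (2.88% of all), the ERR motif TCAAGGTCA in 2 of 27 (0.407% of all) and the E box CACGTG in 5 of 27 (7.24% of all). These are matches of letters, not measured sites. The stretches shown are all from genes that passed the test as lower in the Rptor line. Matches before the start of Atp5h, Sdhaf2, Uqcr11 and Atp5sl, which did not pass, are not shown. Each stretch of 30 bases below reads 5′ to 3′ on the strand of its gene and lies before the start that its RefSeq window is built on, with the match, on either strand, in capitals. For Atp5g3 and Atp5g1 that start lies inside the annotated span of the gene, so their stretches do too. In Atp5g2 and Atp5k the NRF1 core also matches the other strand, and these matches overlap.
Atp5l, NRF1 core, chr9:44920963-44920992, minus strand: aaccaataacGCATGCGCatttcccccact
Atp5k, NRF1 core, chr5:108434429-108434458, minus strand: ttcactgcggcGCATGCGCctttctggctt
Atp5g2, NRF1 core, chr15:102671069-102671098, minus strand: gctccggccgcGCATGCGCagagccttccc
Sdhb, NRF1 core, chr4:140961206-140961235, plus strand: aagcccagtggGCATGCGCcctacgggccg
Sdhd, ETS core, chr9:50603877-50603906, minus strand: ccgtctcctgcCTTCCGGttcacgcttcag
Uqcrh, ETS core, chr4:116075071-116075100, minus strand: actacgaggagtatgccgcaCTTCCGGcca
Atp5g3, ERR motif, chr2:73911359-73911388, minus strand: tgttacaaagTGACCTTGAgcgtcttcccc
Atp5g1, E box, chr11:96075658-96075687, minus strand: agggactccgaaCACGTGggtgggggagct

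To ask how loss of Rptor bears on these genes, deficient lungs were compared with their controls. In the Rptor line 22 of the 33 genes fell and none rose, while 18.2% of all 14940 genes tested fell and 16.6% rose. The number that fell was 19 without deficient replicate 1, where 19.1% of all genes fell, and 16 without control replicate 3, where 12.8% did. The falls were modest, from 0.15 to 0.45 on the log2 scale, and were seen in 13 of 17 ATP synthase genes, 7 of 10 complex III genes and 2 of 6 complex II genes. The 3 deficient values lay below all 3 controls for 23 of the 33 genes and above them for 2, where 26.0% and 24.3% of all genes did so. The median log2 fold change was -0.25 for ATP synthase, -0.26 for complex III and -0.07 for complex II, beside 0.01 for all genes. The complex II median moved most when a sample was left out, from -0.039 without control replicate 3 and -0.044 without deficient replicate 1 to -0.13 without control replicate 2. Together the 33 genes held 0.643% to 0.666% of the total in controls and 0.565% to 0.581% in deficient lungs.

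**Figure D1:**
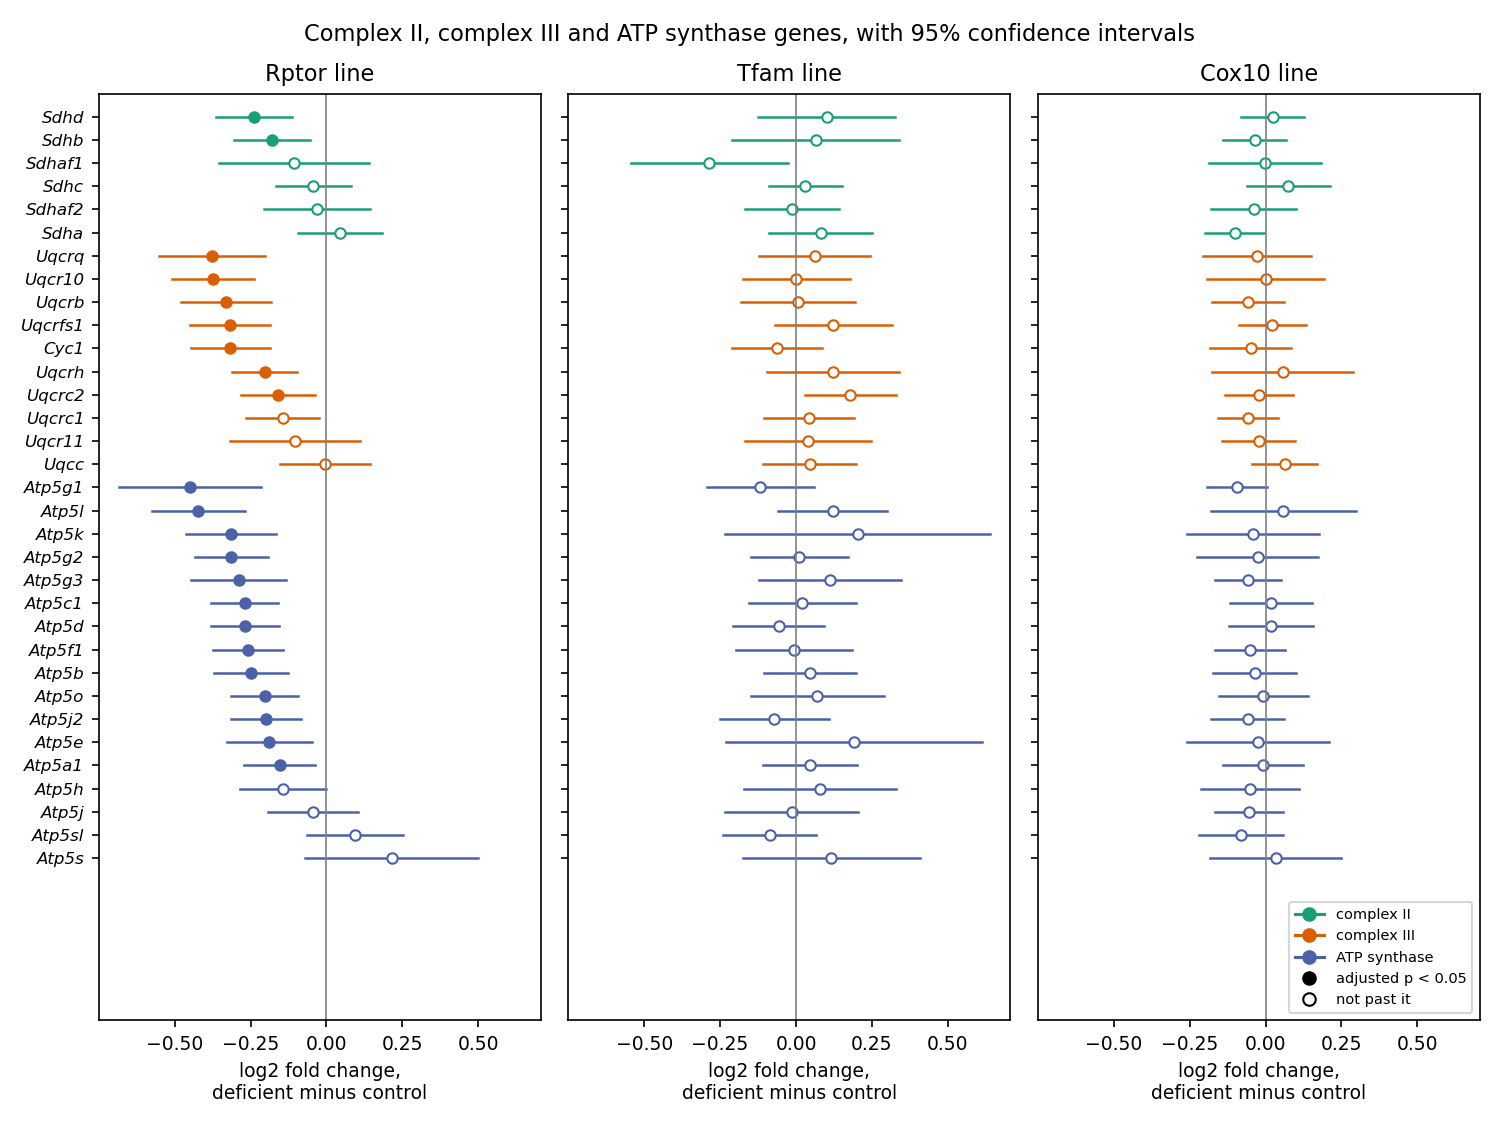
Log2 fold change (x axis, deficient minus control) of each of the 33 genes (y axis) in the 3 lines, with 95% confidence intervals, coloured by complex; filled points passed an adjusted p of 0.05. In the Rptor line 22 filled points lie left of 0, and no point is filled in the Tfam and Cox10 lines.

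Of the complex II genes, Sdhd and Sdhb fell. Sdhd encodes a membrane anchor that helps bind ubiquinone, and its values were 3471, 3421 and 3419 in Rptor controls and 2790.1, 2878 and 3074 in deficient lungs. The groups did not overlap (log2 fold change -0.24, SE 0.05; limma adjusted p = 0.0105). Sdhb encodes the iron-sulfur subunit, which carries electrons from the flavin to ubiquinone. Its values were 2971, 3069 and 3151 in controls and 2645, 2640.1 and 2838 in deficient lungs, all lower (log2 fold change -0.18, SE 0.06; limma adjusted p = 0.0352). Without any 1 of 5 of the 6 samples (all but deficient replicate 3) the adjusted p of Sdhb was above the threshold, as it was in the fit of all 18 samples (limma adjusted p = 0.163).

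The other pair of structural subunits did not pass. Sdha, the flavoprotein that oxidises succinate, had 9158, 8025 and 9049.6 in controls and 8981, 9122 and 8921 in deficient lungs. The groups overlapped (log2 fold change 0.05, 95% interval -0.09 to 0.18), and the sign turned without control replicate 2 (-0.015). Sdhc, the other membrane anchor, averaged 4232 ± 193 and 4106 ± 87.5 (log2 fold change -0.04, interval -0.16 to 0.08). The assembly factors Sdhaf1, which helps insert the iron-sulfur clusters of Sdhb, and Sdhaf2, which helps attach the flavin to Sdha, had log2 fold changes of -0.11 and -0.03 with overlapping groups.

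In complex III the falls reached both electron carriers encoded in the nucleus and small subunits without a cofactor. Uqcrq, a small subunit near cytochrome b, had 1887, 1875 and 1897 in Rptor controls and 1294, 1549 and 1529.7 in deficient lungs. Controls were within a narrow range, and deficient replicate 1 was lowest (log2 fold change -0.38, SE 0.08; limma adjusted p = 0.00664). Uqcr10, another small subunit, had 2847, 2737 and 2751 in controls and 2059.9, 2090.5 and 2291 in deficient lungs (log2 fold change -0.37, SE 0.06; limma adjusted p = 0.00215). Uqcrb, which helps bind ubiquinone, had 1906, 2127 and 1987 in controls and 1560.2, 1547 and 1674 in deficient lungs (log2 fold change -0.33, SE 0.06; limma adjusted p = 0.00541). For each of these 3 genes all deficient lungs were below all controls. After a correction for GC content and transcript length the fall of Uqcrb was smaller but still called (log2 fold change -0.22).

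Uqcrfs1, the Rieske iron-sulfur protein that takes electrons from ubiquinol, fell from 2958 ± 108 to 2373 ± 108 (log2 fold change -0.32). Cyc1, the cytochrome c1 that hands electrons to cytochrome c, fell from 4072 ± 241 to 3267 ± 25 (log2 fold change -0.32). Uqcrh, the hinge protein beside cytochrome c1, fell by 0.20 on the log2 scale, and the core protein Uqcrc2 fell by 0.16. The call of Uqcrh was lost in the fit of all 18 samples (limma adjusted p = 0.108) and after the GC and length correction (log2 fold change -0.12). The fall of Uqcrc2 was near the threshold (adjusted p = 0.0468) and was lost when the replicate number was used as a block (adjusted p = 0.0517). It was also lost without any 1 of the 6 samples. The sister core protein Uqcrc1 did not pass (log2 fold change -0.14, adjusted p = 0.0645), although its groups did not overlap. Uqcr11, a small subunit, and Uqcc, an assembly factor that aids the making of cytochrome b, overlapped between groups, with log2 fold changes of -0.10 and -0.0050.

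The 2 largest falls among the 33 genes, those of Atp5g1 and Atp5l, were in the membrane part of ATP synthase. Atp5g1 encodes the same c-ring protein as Atp5g2 and Atp5g3, each with its own targeting sequence. Its values were 3282, 3160.0 and 3667 in Rptor controls and 2151, 2847 and 2436 in deficient lungs. Deficient replicate 1 was lowest and the spread was wide (log2 fold change -0.45, SE 0.10; limma adjusted p = 0.0105). Atp5l, the g subunit of the region where the enzyme forms dimers, had 3282, 3632 and 3239 in controls and 2361, 2613 and 2596 in deficient lungs (log2 fold change -0.42, SE 0.07; limma adjusted p = 0.00213). Atp5k, the e subunit of the same region, had 1774, 1562 and 1682 in controls and 1314, 1352 and 1361 in deficient lungs (log2 fold change -0.32, SE 0.07; limma adjusted p = 0.00695). All deficient lungs were below all controls for these 3 genes. The call of Atp5k was lost in a fit of all 18 samples (limma adjusted p = 0.139).

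All 3 c-ring genes fell. Atp5g2 had 4431, 4286 and 4094 in controls and 3501, 3476 and 3330.1 in deficient lungs (log2 fold change -0.31). Atp5g3 had 9743, 8912 and 10041 in controls and 7896, 7265 and 8337 in deficient lungs (log2 fold change -0.29), and it was not called without control replicate 3. The f subunit Atp5j2, also in the membrane part, fell by 0.20 on the log2 scale and was likewise not called without control replicate 3.

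In the catalytic head (F1) all 5 genes fell. The beta subunit Atp5b, which holds the catalytic sites, fell from 39314 ± 1068 to 33112 ± 719 (log2 fold change -0.25). Atp5c1, the gamma subunit of the central stalk, fell from 7517 ± 264 to 6234 ± 2.00, and the delta subunit Atp5d fell from 6680.2 ± 220.2 to 5543 ± 105, both with a log2 fold change of -0.27. The alpha subunit Atp5a1 and the epsilon subunit Atp5e fell less, by 0.15 and 0.19 on the log2 scale, with adjusted p of 0.0477 and 0.0440. With the replicate block Atp5a1 no longer passed (adjusted p = 0.0559). Both Atp5a1 and Atp5e were lost when any 1 of 5 of the 6 samples was left out, and Atp5e also in the fit of all 18 samples (limma adjusted p = 0.378).

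In the peripheral stalk, which holds the head still, Atp5f1 (the b subunit) fell from 9149 ± 109 to 7654 ± 328 and Atp5o (which joins the stalk to the head) from 6101 ± 131 to 5297 ± 134. Their log2 fold changes were -0.26 and -0.20, and the call of Atp5o was lost in the fit of all 18 samples (limma adjusted p = 0.0622). The stalk genes Atp5h and Atp5j did not pass (log2 fold changes -0.14 and -0.04), and their groups overlapped. Atp5s and Atp5sl carry ATP synthase names, but RefSeq lists them as Dmac2l and Dmac2, the latter known as an assembly factor of complex I. They were the only ATP synthase symbols with positive log2 fold changes, 0.21 and 0.09, and all deficient lungs were above all controls for both, yet neither passed (limma adjusted p = 0.214 and 0.324).

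**Figure D2:**
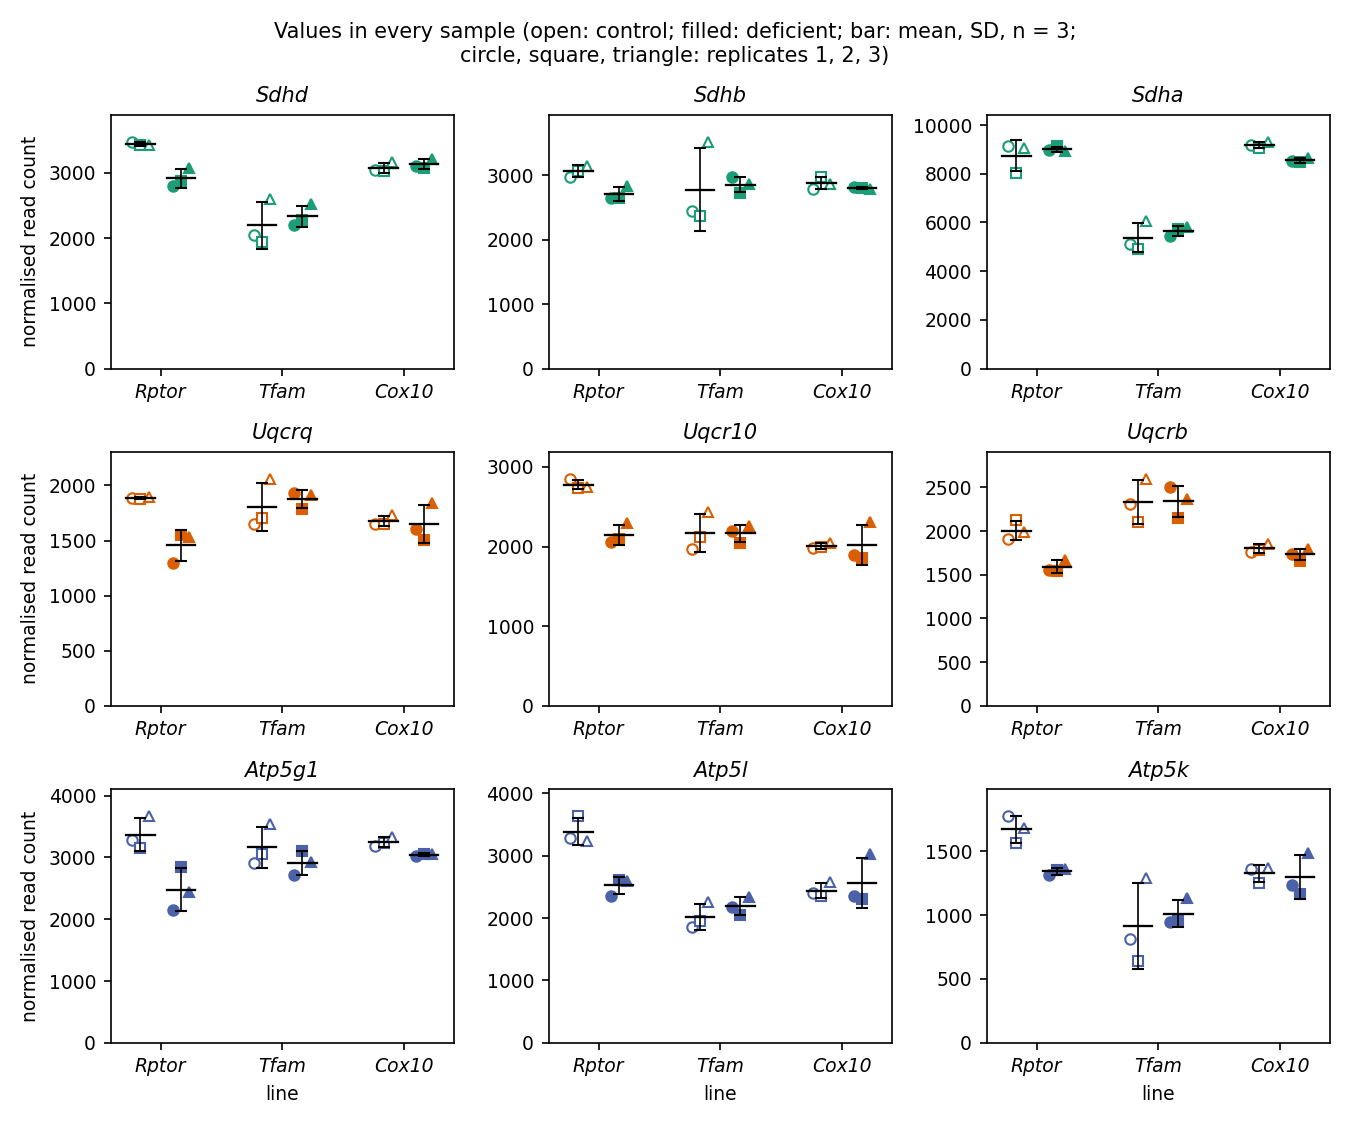
Normalised read count (y axis, from 0) of 9 genes in every sample of the 3 lines (x axis); open points are controls, filled points deficient lungs, bars the mean and SD of 3. In the Rptor line the deficient points of 8 genes lie below all controls and those of Sdha do not, and in the Tfam line control replicate 3 (open triangle) is the highest control for all 9.

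Genes that work beside these complexes, in a list of 19 of which 16 were tested, gave 4 falls and no rise in the Rptor line (median log2 fold change -0.12), where 18.2% of all genes fell. Slc25a5, which exchanges ADP and ATP across the inner membrane, averaged 12197 in controls and 7446 in deficient lungs (log2 fold change -0.71, SE 0.06; limma adjusted p = 0.000113). Cycs, the cytochrome c that complex III reduces, averaged 2710.3 and 1701 (log2 fold change -0.67, SE 0.09; limma adjusted p = 0.000786). Both exceeded the largest fall among the 33 genes. Usmg5, a small protein bound to ATP synthase, fell by 0.33 and Slc25a3, the phosphate carrier, by 0.24 on the log2 scale. With the GC and length correction the fall of Usmg5 was smaller (log2 fold change -0.19), and it was still called. The assembly factors Bcs1l, Lyrm7, Ttc19, Atpaf1, Atpaf2 and Tmem70 did not pass, with log2 fold changes of -0.21 to 0.04. Among 8 regulators of respiratory genes, Pprc1, a coactivator of the PGC-1 family, fell by 0.51, and the nuclear receptor Esrra rose by 0.28 (limma adjusted p = 0.000335 and 0.0256). The call of Esrra was lost after the GC and length correction (log2 fold change 0.17) and without any 1 of 5 of the 6 samples (all but deficient replicate 1). Nrf1 and Gabpa had log2 fold changes of -0.09 and -0.01 and did not pass. Among the promoter windows, the NRF1 core was in 4 of 17 from genes that fell and in 2 of 10 from the others, and the ETS core in 6 of 17 and 4 of 10. The YY1 core was in 2 of 17 and 1 of 10, the ERR motif in 2 of 17 and 0 of 10, and the E box in 4 of 17 and 1 of 10.

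Counts for the other complexes of the chain stand beside the same 18.2% of all genes that fell and 16.6% that rose. Of 36 complex I subunits 10 fell and none rose (median log2 fold change -0.13). Of 13 nuclear complex IV subunits 6 fell and 1 rose (median -0.17). Both lists were made by gene symbol alone, which put Ndufa4 (log2 fold change -0.26, limma adjusted p = 0.0144) with complex I. In the Rptor line 14 of 15 epithelial markers fell (median log2 fold change -0.95) and all 15 were below their controls, while 6 of 12 mesenchymal, 5 of 7 endothelial and all 4 tested macrophage markers rose (medians 0.53, 0.34 and 0.71). Mesenchymal sums were 200793 to 230967 in controls and 391942 to 424942 in deficient lungs. Most of each sum came from the collagens Col1a1, Col1a2 and Col3a1. These averaged 49721.9, 48235.5 and 76720.5 in controls and 109355, 101629 and 147576 in deficient lungs. Twist1, Tbx4, Tbx5, Foxf1, Meox2 and Wnt2 of the same list did not pass. Of the other marker lists, 1 of 6 cardiac genes (Myh7) rose and 1 of 4 skeletal muscle genes (Mylpf) fell. None of 4 erythroid or 5 neuronal and glial genes passed. Cardiac sums were 1402, 1423 and 4126 in control replicates 1, 2 and 3 and 1411 to 2692 in deficient lungs. None of the epithelial or mesenchymal markers was at 0 in any group, and the part of these shifts in the falls of respiratory genes was not tested.

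**Figure D3:**
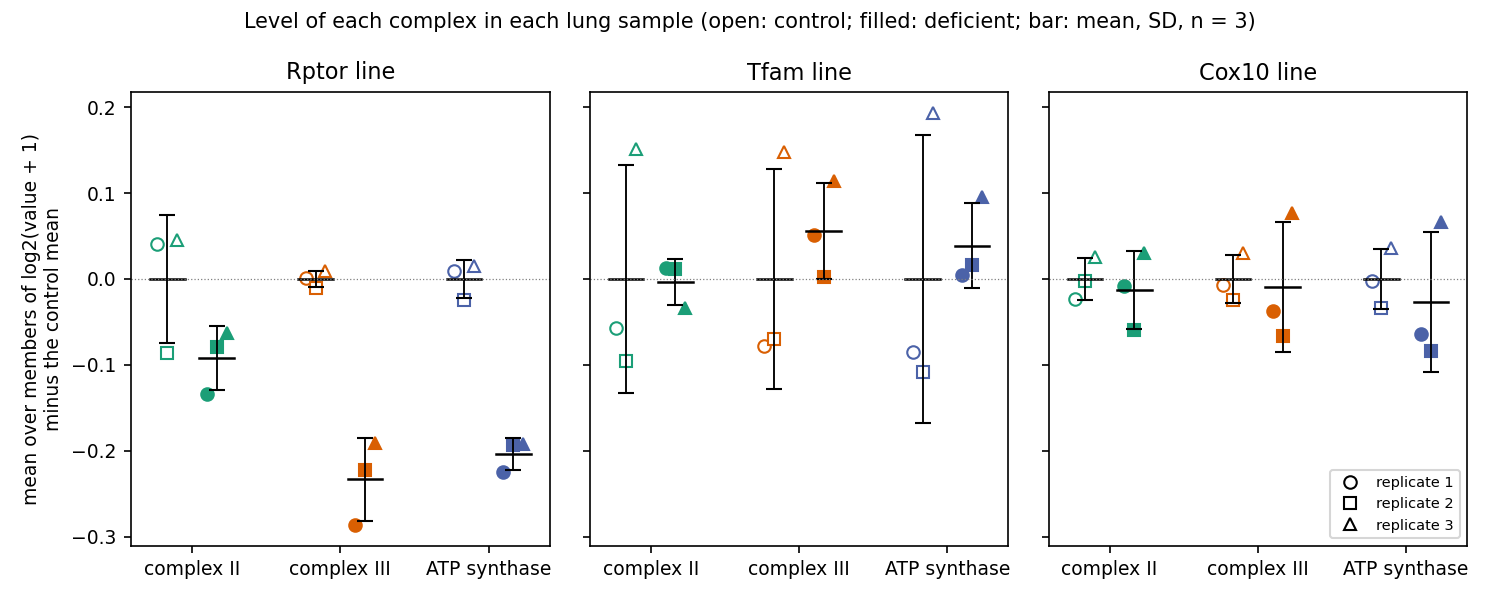
Mean over the genes of a complex of log2(value + 1) minus the control mean of its line (y axis), for each sample (open, control; filled, deficient), with the mean and SD of 3 as bars. Rptor-deficient lungs sit between -0.29 and -0.19 for complex III and between -0.23 and -0.19 for ATP synthase, and Tfam control replicate 3 stands 0.15 to 0.19 above its control mean.

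In the Tfam line none of the 33 genes passed, while 2.63% of all 15053 genes tested fell and 2.03% rose. At an unadjusted p below 0.05 there were 2 of the 33 genes and 2618 of all genes. The deficient values lay below all controls for 1 gene and above them for 1, where 11.8% and 10.9% of all genes did so. Median log2 fold changes were 0.05, 0.04 and 0.05 for complex II, complex III and ATP synthase, and 24 of the 33 log2 fold changes were positive. The 95% intervals of 17 of the 33 genes lay within 0.25 of 0, and the widest limits over all 33 were -0.54 and 0.64.

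The complex II gene with the lowest p was Sdhaf1, with 766, 892 and 831 in Tfam controls and 763, 744 and 552 in deficient lungs. All deficient lungs were lower, 1 by little (log2 fold change -0.29, SE 0.12; limma adjusted p = 0.238). In complex III it was Uqcrc2, with 4643, 4787 and 5489 in controls and 5548, 5616 and 5682 in deficient lungs. Deficient lungs were all higher, and control replicate 3 was close to them (log2 fold change 0.18, SE 0.07; limma adjusted p = 0.193). Of the ATP synthase genes it was Atp5l, with 1849, 1953 and 2257 in controls and 2179.5, 2051 and 2342 in deficient lungs, overlapping (log2 fold change 0.12, SE 0.08; limma adjusted p = 0.492).

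The spread among Tfam controls came largely from replicate 3. Atp5e had 795, 785 and 1417 in the 3 controls and 989, 1061 and 1255 in deficient lungs. Sdhb had 2442, 2365 and 3516 in controls and 2976, 2729.8 and 2863 in deficient lungs. The control coefficient of variation had a median of 10.7% over the 33 genes in the Tfam line, beside 3.73% and 3.02% in the Rptor and Cox10 controls. Replicate 3 was the highest control for both genes. Without control replicate 3, 5 of the 33 genes passed and all 5 were higher in deficient lungs, where 3.46% of all genes were: Atp5k, Atp5e, Atp5g3, Uqcrc2 and Sdhb, with log2 fold changes of 0.48, 0.47, 0.26, 0.25 and 0.25 (limma adjusted p = 0.0161 to 0.0327). The median over the 33 genes was then 0.10 and 28 were positive. Without control replicate 2 the direction turned, with a median of -0.0036 and 18 of 33 negative, and with medians of -0.021 for complex II and -0.0090 for ATP synthase. Without control replicate 1 the median was 0.0090. Only a pair of controls remains in that fit, and nothing in the labels sets replicate 3 apart. Its cardiac muscle markers summed to 9733, between the 5610.0 and 14451 of the other controls, and its epithelial markers to 36760, beside 35110.0 and 35099.

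Among the Sdh and c-ring families no Tfam group mean differed beyond the test. Sdha averaged 5369 ± 602 and 5662 ± 205, Sdhc 3522 ± 145 and 3597 ± 42.3, and Sdhd 2192 ± 361 and 2335 ± 163. Atp5g1, Atp5g2 and Atp5g3 had differences of -0.12, 0.011 and 0.11 on the log2 scale, none past the test (limma adjusted p = 0.496 to 0.960). Of the 16 tested partner genes, 8 regulators and 36 complex I subunits none passed, and of 13 complex IV subunits 1 rose (Cox4i2). In the same line 7 of 15 epithelial markers fell (median log2 fold change -0.29), and the cardiac marker Nppa rose by 2.29 on the log2 scale. Cardiac sums were 5610.0 to 14451 in controls and 25842, 9449 and 9684 in deficient replicates 1, 2 and 3. No marker of the other lists passed, and the part of these shifts in the respiratory genes was not tested.

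In the Cox10 line none of the 33 genes passed, while 0.335% of all 14937 genes tested fell and 0.141% rose. At an unadjusted p below 0.05 there was 1 of the 33 genes and 1945 of all genes. The deficient values lay below all controls for 4 genes and above them for 1, where 10.8% and 10.6% of all genes did so. Medians were -0.02 for complex II, -0.02 for complex III and -0.04 for ATP synthase on the log2 scale. Without deficient replicate 3, complex III was at -0.061 and ATP synthase at -0.072. Without deficient replicate 2, complex II was at 0.0046, complex III at 0.0096 and ATP synthase at -0.0031. Complex II was also above 0 without control replicate 3 (0.0045) and complex III without deficient replicate 1 (0.00072), so no direction is given for these medians. The range over the 33 genes was -0.10 to 0.08, and the 95% intervals of 29 of them lay within 0.25 of 0. The remaining 4 had intervals that reached beyond 0.25 on at least 1 side.

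Sdha had the lowest p in complex II, with 9174, 9040.5 and 9304 in Cox10 controls and 8514, 8479 and 8657 in deficient lungs. Deficient lungs were all lower and close together (log2 fold change -0.10, SE 0.04; limma adjusted p = 0.370). Uqcc led in complex III, with 1379, 1381 and 1362 in controls and 1424, 1435 and 1447 in deficient lungs, all higher (log2 fold change 0.06, SE 0.05; limma adjusted p = 0.571). Atp5g1 led in ATP synthase, with 3179, 3229.7 and 3338 in controls and 3019, 3060.0 and 3054 in deficient lungs, all lower (log2 fold change -0.09, SE 0.04; limma adjusted p = 0.402). The other c-ring genes Atp5g2 and Atp5g3 had log2 fold changes of -0.03 and -0.06, and Sdhb, Sdhc and Sdhd had -0.04, 0.08 and 0.02. None of the partner genes, regulators, complex I or complex IV subunits passed. Of the epithelial markers 3 of 15 fell (median log2 fold change -0.37) and no marker of the other lists passed. Their part in these values was not tested.

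**Figure D4:**
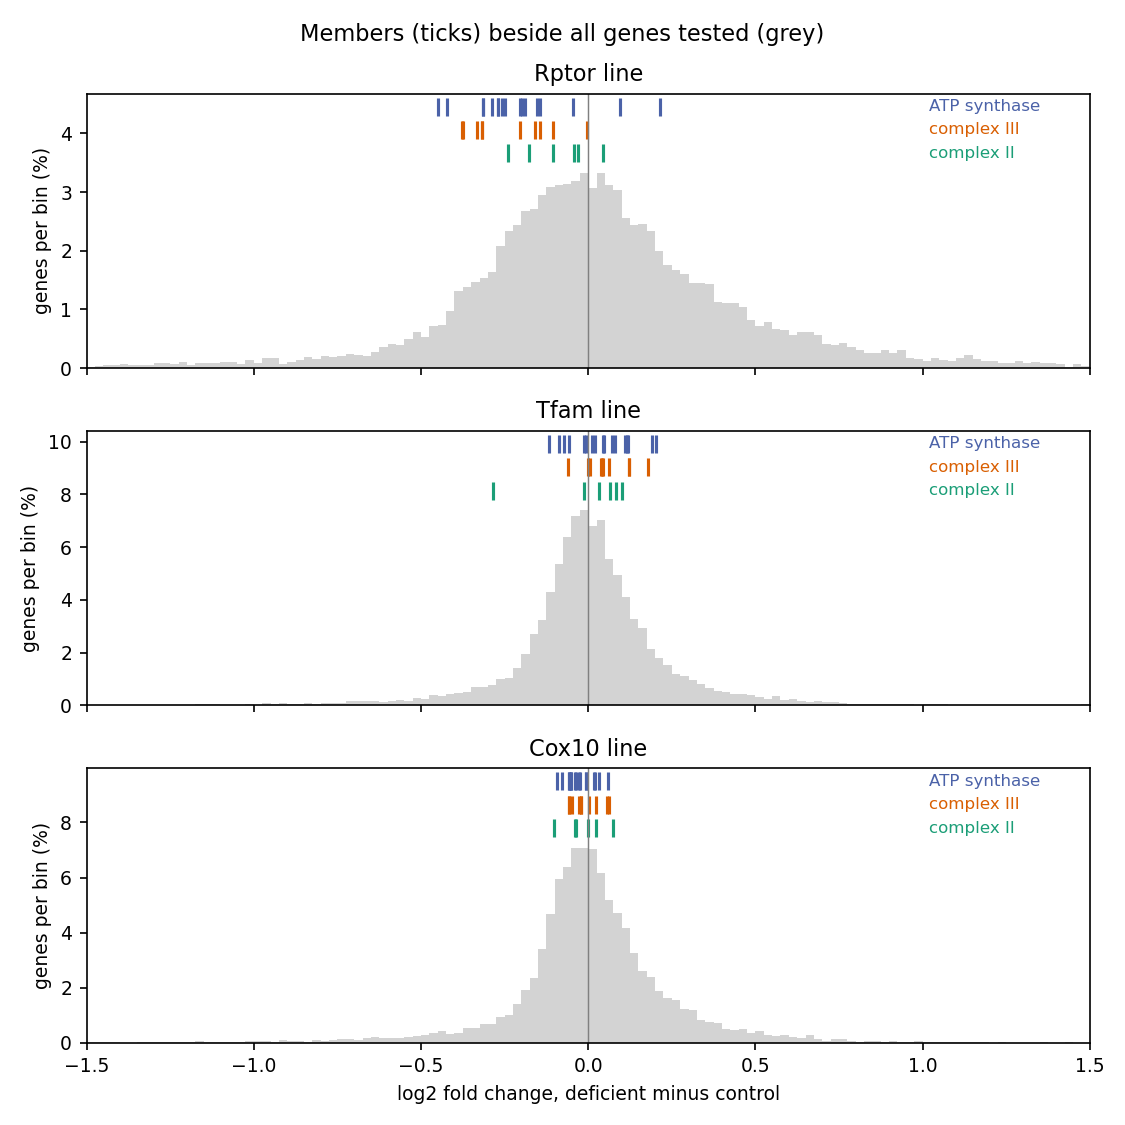
Distribution of log2 fold changes of all genes tested (grey, percent of genes per bin of 0.025) in each line, with the genes of each complex as ticks; 320, 57 and 39 genes lie outside the axes of the Rptor, Tfam and Cox10 panels. The ticks of the Rptor line lie mostly left of 0 and inside the grey distribution, and those of the other lines lie near its centre.

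The difference between lines was then tested itself, in a fit of all 18 samples on 14550 genes. The Rptor and Tfam effects differed for 7 of the 33 genes, where 11.2% of all genes differed. These were Atp5l, Uqcrfs1, Uqcrq, Uqcr10, Uqcrc2, Uqcrb and Atp5b, each lower in the Rptor contrast, with differences of -0.54 to -0.29 on the log2 scale. Atp5l had log2 fold changes of -0.42 with Rptor deleted and 0.12 with Tfam deleted (difference -0.54, SE 0.13; limma adjusted p = 0.0157). With the GC and length correction the difference of Uqcrb was no longer called (-0.13, limma adjusted p = 0.319), and those of Atp5l and Uqcr10 shrank to -0.36 and -0.25 but were called. For Uqcrfs1 the log2 fold changes were -0.32 and 0.12 (difference -0.44, SE 0.10; limma adjusted p = 0.0111). With the replicate number as a block 15 genes differed, beside 15.9% of all genes, and without Tfam control replicate 3 the number was 21, beside 15.6% of all. It was 3 without Rptor control replicate 3, without Tfam control replicate 1 or 2, or without Tfam deficient replicate 3. The number was 4 without Rptor control replicate 2 or deficient replicate 1. For the fits with 3 or 4 genes the share of all genes is not given.

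The Rptor and Cox10 effects differed for 3 genes, Atp5l, Uqcrfs1 and Atp5d, where 7.48% of all genes differed. They amounted to -0.48, -0.34 and -0.29 on the log2 scale (limma adjusted p = 0.0355, 0.0498 and 0.0461). With the block 6 genes differed, beside 10% of all. The number was 0 without Rptor control replicate 1 or 2, Rptor deficient replicate 1, or Cox10 control replicate 1 or 2. It was 1 without Rptor control replicate 3, Cox10 control replicate 3 or Cox10 deficient replicate 1 or 3. For these fits the share of all genes is not given. Between the Tfam and Cox10 effects none of the 33 genes differed, where 0.0550% of all genes did.

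Several of the 33 genes share near-identical stretches with transcripts of other annotated genes, and the counting could split or drop their reads. Such transcripts, at least 95% identical over at least 200 bases, were found for 11 genes, with 9 for Atp5l, 4 for Atp5h and 3 for Uqcrb, and the match of Uqcrc2 was to Pdzd9. The values of these genes are uncertain in this respect. With trends on GC content and transcript length removed from every sample, 20 of the 33 genes still fell in the Rptor line, beside 20.5% of all genes. The median over the 33 genes was -0.18, against -0.20 without this correction. Uqcrc1 was then called, and Atp5e, Uqcrc2 and Uqcrh were not.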

How the data were processed

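RNA from whole lungs was sequenced in 18 samples, grouped by their titles. Per the submitters' processing notes, Trim Galore, HISAT2, featureCounts, DESeq2 and the mouse build mm10 were used, with no versions given. For each gene and sample the authors deposited a normalised signal (a read count divided by a size factor; 100% of values were whole multiples of a step of 0.978 to 1.02, within 0.01 of a step). Each line had a table of its own. The authors' fold changes and p-values in these tables were not used.

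Genes were kept where 3 or more of the 6 samples of a line reached a value of 10, and were tested with limma 3.58.1 in R 4.3.3 (lmFit, eBayes with a trend) on log2(value + 1), which understates changes of low genes. Tests were two-sided, with Benjamini-Hochberg adjustment over all genes tested. Differences between lines were contrasts in a fit of 6 group means. That fit keeps the log2 fold change of each line and pools the spread of a gene over the 3 lines. A call of 1 line there thus also depends on the spread in the others. The fits were tested on simulated data.

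Deviations of same-numbered samples correlated at 0.221, 0.330 and 0.259 in the Rptor line. In the other lines at least 1 pair was below 0.1. For the Rptor line this is a hint that the numbers pair its samples, which the labels do not state. The main fits were unpaired, and the pairing was used only in the alternatives with the replicate block. Replicates differed by a chi-square per gene of 4.11 to 31.8. The study's methods name pooled lungs only for an earlier stage, and the labels do not say whether the samples used here are single embryos, so p-values measure the spread between these samples.

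The genes, the lists of partners, regulators, complexes and markers, and the tests were chosen with earlier results of these data known. Named were all of the 33 genes that passed, up to 3 per complex and line with every sample's value (the lowest p where none passed), the Sdha to Sdhd and c-ring families, genes whose effect differed between lines, and partner genes that passed. Alternatives were a pseudocount of 0.1, no filter, a mean of at least 50, library totals, TMM, a replicate block, a lowess correction for GC content and length (span 0.3), both together, 1 fit of 18 samples, an adjusted p below 0.01, and leaving out each sample.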

Additional observations from a re-analysis of the deposited data

Results flagged for a closer look

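The effect of the deletion differed between lines, by a test of the difference itself, for 10 pairs of gene and lines. These are 7 of the 33 genes between the Rptor and Tfam lines, beside 11.2% of all genes, and 3 of the 33 between the Rptor and Cox10 lines, beside 7.48% of all genes, so that the latter number is near the share among all genes. Values are the log2 fold change in the Rptor line minus that in the other line. Against the Tfam line they were -0.29 for Atp5b, -0.54 for Atp5l, -0.37 for Uqcr10, -0.34 for Uqcrb, -0.34 for Uqcrc2, -0.44 for Uqcrfs1 and -0.44 for Uqcrq. Against the Cox10 line they were -0.29 for Atp5d, -0.48 for Atp5l and -0.34 for Uqcrfs1. With the GC and length correction Uqcrb against the Tfam line was -0.13 and not called, and Atp5l and Uqcr10 were -0.36 and -0.25 and called. Only Atp5l, Uqcrc2 and Uqcrfs1 against the Tfam line kept their call without each single sample, and none of the 10 had an adjusted p below 0.01. Groups of 3 samples were too small for a test of single far values.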

How the results depend on the processing

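A count test on recovered whole reads was not run. Of the 33 genes, 22 fell in the Rptor line, beside 18.2% of all genes. Under the alternatives that kept all samples and the threshold 18 to 22 did, beside 13.5% to 21.7% of all. At an adjusted p below 0.01 the number was 12, beside 9.8% of all. It was 16 to 20 when a sample was left out, beside 12.6% to 19.1% of all. In the Tfam line the number that rose was 0 to 5 when a sample was left out. The 5 came without control replicate 3, beside 3.46% of all genes. No other alternative gave a call in the Tfam or Cox10 lines. The Rptor and Tfam effects differed for 7 genes (11.2% of all genes) and for 15 with the replicate block (15.9% of all). The number was 14 with the block plus GC and length correction and 0 at an adjusted p below 0.01. It was 3 to 21 when a sample was left out, the 21 without Tfam control replicate 3 (15.6% of all). The share of all genes is not given for the other settings, so their counts have no such background. The Rptor and Cox10 effects differed for 3 genes, for 1 with no filter, 6 with the replicate block, 5 with the GC and length correction, 8 with both, 0 at an adjusted p below 0.01 and 0 to 3 when a sample was left out. The cause of these shifts was not tested. Same-numbered samples correlated at -0.312, -0.207 and 0.151 in the Tfam line and at 0.447, 0.202 and 0.0488 in the Cox10 line, and with the block 0 genes were called in either line. In the Rptor line each control correlated best with its own number, and 20 genes fell with the block, beside 20% of all genes.

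Among genes that did not pass, small values turned sign when a sample was left out. Sdha in the Rptor line ranged from -0.015 (without control replicate 2) to 0.080. In the Tfam line Sdhb ranged from -0.038 to 0.248 (below 0 without control replicates 1 and 2), Sdhc from -0.0036 (without control replicate 2) to 0.050, and Atp5g2 from -0.033 to 0.089 (below 0 without control replicates 1 and 2 and deficient replicate 3). With the GC and length correction, with or without the block, Atp5g2 was -0.015 there. In the Cox10 line Atp5g2 ranged from -0.123 to 0.046 (above 0 without control replicate 1 and deficient replicate 2). With that correction the Rptor medians were -0.20 for complex III and -0.22 for ATP synthase. Under other scaling the median of all genes was at most 0.02 on the log2 scale.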
